A study of Mus musculus with 5 samples.

Results

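The nuclear-encoded genes of oxidative phosphorylation were taken as every gene whose symbol begins with Nduf, Uqcr, Sdh, Cox4, Cox5, Cox6, Cox7, Cox8 or Atp5 in 3 single-cell expression matrices of mouse immune cells. The prefixes picked 96 genes of the 22552 symbols in all: 93 of 18087 in the 5555 tumour matrix, 93 of 19427 in the CT26 matrix and 95 of 19603 in the dendritic cell (DC) culture matrix, with 92 in every matrix. By role they comprised 7 core and 30 accessory subunits of complex I with 8 of its assembly factors, 4 subunits and 4 assembly factors of complex II, 8 subunits of complex III, 11 ubiquitous subunits of complex IV, 17 subunits of complex V and the remaining Cox7a2l, Atp5s and 5 isoforms restricted to some tissues or states (Cox4i2, Cox6a2, Cox6b2, Cox7a1 and Ndufa4l2). Of the 96, 94 matched 1 GENCODE gene of that name, and they lie on 19 chromosomes. The choice used names only, not measured values.

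The 5555 tumours, a mouse melanoma line, were grown under the skin of C57BL/6 mice and taken on day 4. They were Ptgs+/+, Ptgs-/-, or Ptgs-/- in mice whose natural killer (NK) cells were depleted with anti-NK1.1 (clone PK136) and anti-Asialo GM-1. Ptgs genes encode the cyclooxygenases of prostaglandin synthesis and are unrelated to the Cox genes of cytochrome c oxidase described here. The deletion sits in the tumour cells, which the sort for live CD45+ cells removes, so Ptgs levels in these libraries do not check the labels. CT26 tumours came from BALB/c mice on day 12, with no treatment in the labels. Bone marrow DCs (BMDCs) of C57BL/6 mice, grown with FLT3L and GM-CSF and harvested on day 10, were untreated or kept with Ptgs+/+ or with Ptgs-/- 5555 cells. The 3 culture conditions were hashtagged in 1 library, and each tumour group was 1 library, so no group has a replicate. The number of mice behind a library is not given in the labels. Cell classes are those of the authors' deposited annotation.

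Oxidative phosphorylation makes ATP in the inner mitochondrial membrane. Complexes I and II pass electrons from NADH and succinate to ubiquinone, complex III passes them to cytochrome c, complex IV reduces oxygen, and complex V (ATP synthase) uses the resulting proton gradient. Most subunits are encoded in the nucleus and imported, while a small set of core subunits is transcribed from mitochondrial DNA, so both genomes must supply each complex except complex II. In macrophages and DCs, activation is known to shift energy metabolism between this pathway and glycolysis.

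Many of these genes are known targets of NRF-1 and of ETS-family factors such as GABPA (NRF-2), whose sites lie close to the start of transcription. RefSeq promoter windows of build GRCm38.p6 matched 77 of the 96 members by symbol, and the 250 bases before the start were searched on both strands. The NRF-1 motif (GCGCA, any base, GCGC) stood in 14 of the 77 members (18.2%, against 4.23% of 27025 genes with a window), and the ETS motif CCGGAAG in 16 (20.8%, against 7.83%). The YY1 motif ATGGCGGC was found in 2 (2.60%, against 1.19%) and the TATA box TATAAA in 6 (7.79%, against 14.3%). A match is a string in this window and no measured site. The 5 windows below belong to genes on which results turn. Cox6a1 is the ubiquitous partner of the isoform Cox6a2, and Atp5h and Atp5e of complex V moved in opposite directions between tumour genotypes. The levels of Ndufa4 and its paralogue AA467197 diverged in cultured CCR7+ DCs and cDC1. Each window is written 5′ to 3′ in the direction of the gene and ends at the base before the RefSeq start. The nearest GENCODE start lay 23 bases away for Cox6a1, 2 for Atp5h, 4 for Atp5e, 0 for Ndufa4 and 28 for AA467197. The GENCODE genes of Cox6a1 and Atp5h reach to positions 115348981 and 115419962, so their ETS matches lie within the annotated genes. Capitals mark motif matches, here NRF-1 at 162 and 117 bases before the start and ETS at 16 in Cox6a1, NRF-1 at 141 and ETS at 38 in Atp5h, and ETS at 102 in Atp5e. Neither Ndufa4 nor AA467197 held any of the 4 strings in its window.

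The Cox6a1 window lies at chr5:115348959-115349208 (minus strand), Atp5h at chr11:115419920-115420169 (minus), Atp5e at chr2:174464102-174464351 (minus), Ndufa4 at chr6:11907451-11907700 (minus) and AA467197 at chr2:122637637-122637886 (plus).
Cox6a1: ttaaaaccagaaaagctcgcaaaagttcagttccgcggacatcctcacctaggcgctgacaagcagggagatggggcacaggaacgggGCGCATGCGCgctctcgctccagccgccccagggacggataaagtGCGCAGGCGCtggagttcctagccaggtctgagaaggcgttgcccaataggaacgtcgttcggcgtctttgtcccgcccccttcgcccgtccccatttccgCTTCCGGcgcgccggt
Atp5h: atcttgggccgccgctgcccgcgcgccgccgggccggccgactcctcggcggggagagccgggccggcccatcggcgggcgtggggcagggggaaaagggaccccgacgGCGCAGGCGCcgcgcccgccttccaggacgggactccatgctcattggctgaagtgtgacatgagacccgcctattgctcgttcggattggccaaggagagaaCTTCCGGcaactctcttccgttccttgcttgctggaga
Atp5e: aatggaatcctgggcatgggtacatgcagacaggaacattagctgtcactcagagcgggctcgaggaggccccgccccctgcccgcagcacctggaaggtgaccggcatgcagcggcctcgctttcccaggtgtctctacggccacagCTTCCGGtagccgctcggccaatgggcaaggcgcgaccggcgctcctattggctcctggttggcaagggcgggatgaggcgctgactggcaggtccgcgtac
Ndufa4: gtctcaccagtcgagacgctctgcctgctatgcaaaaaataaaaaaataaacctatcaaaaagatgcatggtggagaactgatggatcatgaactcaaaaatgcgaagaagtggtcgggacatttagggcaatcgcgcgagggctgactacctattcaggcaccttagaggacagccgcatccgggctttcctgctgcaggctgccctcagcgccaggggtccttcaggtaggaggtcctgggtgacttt
AA467197: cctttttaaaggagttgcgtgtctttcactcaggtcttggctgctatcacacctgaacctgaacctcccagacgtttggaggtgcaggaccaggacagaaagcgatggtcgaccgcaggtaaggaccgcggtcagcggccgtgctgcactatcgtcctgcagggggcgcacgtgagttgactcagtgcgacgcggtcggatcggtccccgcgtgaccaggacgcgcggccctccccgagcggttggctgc

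Between 3262 and 8987 annotated cells were used per library or hashtagged condition, with medians of 3634 to 9709 unique molecular identifiers (UMIs) per cell. Levels below are UMIs scaled to the same total in every cell (CPM), averaged over the cells of a class, and the summed level adds the members. The libraries count 3′ ends, so levels carry no length term. Classes of 1 library share that library, and intervals are 95% exact intervals that cover counting error only. Before any comparison 1 class went against its label: the 45 cells called NK cells in the NK-depleted library summed to 16.6 CPM over 6 NK cell markers with 4 of them at 0 UMIs, against 10233 and 10711 CPM in the other 5555 libraries, and their T cell markers summed to 2570 CPM. Counts over classes of the NK-depleted comparison that include it are also given without it, a choice made after the data were seen. In the cultures, the class called proliferating cDC2 summed to 463 to 754 CPM over the cDC2 markers and to 1656 to 1864 CPM over plasmacytoid DC markers, so it is named here only as the authors call it. The CCR7+ DC classes (cDC3 in 5555, actDC in CT26, mDC in the cultures) held their markers at 4587 to 12986 CPM, against 57.0 to 193 CPM in cDC2.

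The summed level differed between cell classes in a similar order in every 5555 library. In the Ptgs+/+, Ptgs-/- and NK-depleted libraries neutrophils had 7550, 10797 and 9618 CPM, and macrophages of the class TAM 3 had 11697, 12580 and 10813 CPM. cDC1, the cross-presenting DCs, had 18553, 18812 and 15823 CPM, the highest of all ranked classes except in the NK-depleted library, where TAM 4 had 15889 CPM. B cells had 10403 and 8438 CPM in the Ptgs-/- and NK-depleted libraries (23 cells in the Ptgs+/+ library were too few to rank). Neutrophils also had the shallowest profiles named here, with medians of 842, 1156 and 965.5 UMIs per cell.

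**Figure D1:**
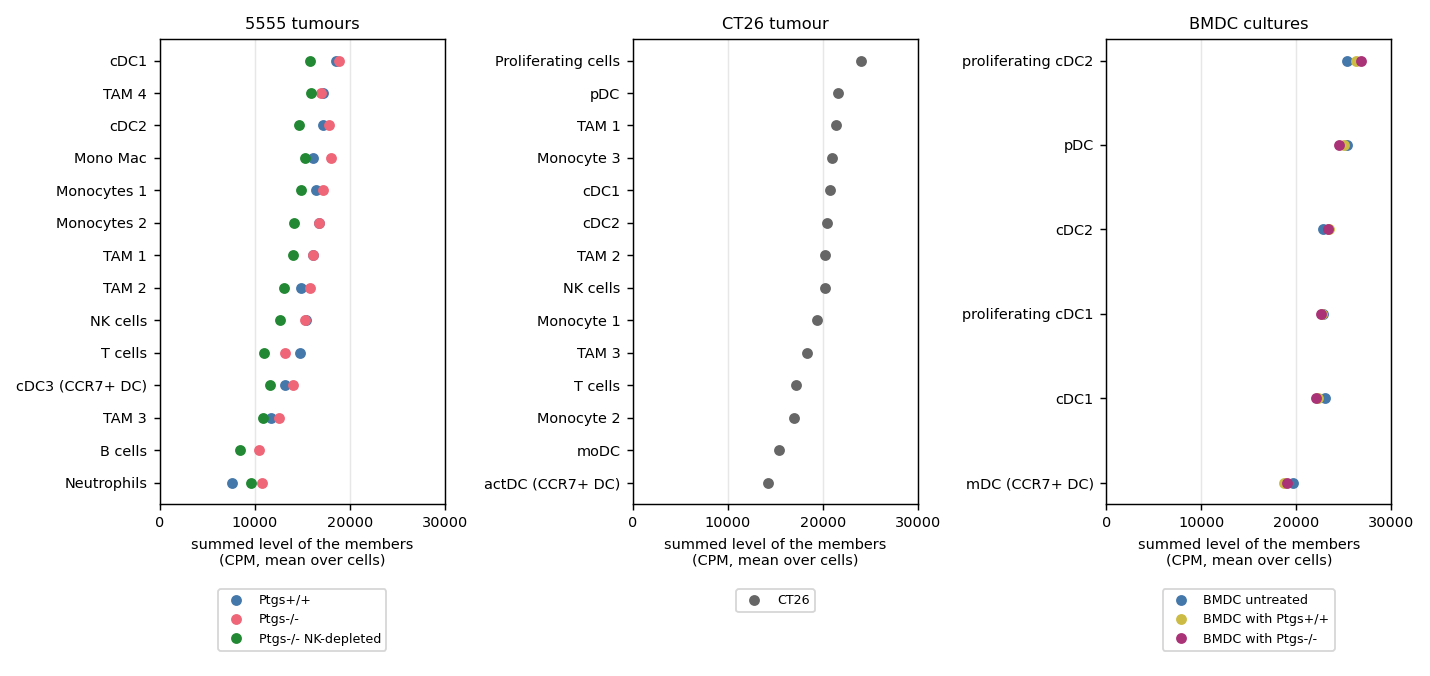
Summed level of the members (CPM, mean over cells, axis from 0) in each class with at least 30 cells; each point is 1 library or hashtagged condition. In CT26 and in the cultures the CCR7+ DC class is the lowest point of its panel, at 14175 CPM and at 18671 to 19695 CPM.

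CCR7+ DCs, the mature DCs that migrate to lymph nodes, were near the bottom of this order. They had 13212, 13994 and 11616 CPM in the Ptgs+/+, Ptgs-/- and NK-depleted 5555 libraries (54, 58 and 45 cells), with 2, 4 and 4 ranked classes below them. In CT26 they had 14175 CPM and in the untreated, Ptgs+/+ and Ptgs-/- cultures 19695, 18671 and 19031 CPM, with no class below them. The CCR7+ DC sum was 0.682 to 0.862 times that of cDC1 or cDC2 of the same library. Over all genes tested the CCR7+ DC value was also lower, by a median of -0.36 to -0.12 on the log2 scale, and with that median taken off the members' own median was still -0.48 to -0.18. The classes were drawn by the authors from these same cells, so these are descriptions and carry no test.

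Complex I made up a smaller part of the summed level in CCR7+ DCs than in any other class with at least 30 cells of the same library, in all 7 libraries and conditions. The 23 B cells of the Ptgs+/+ library, under that limit, had a lower share (24.9%) than its CCR7+ DCs. Its share was 26.0%, 21.5% and 20.3% in the 3 5555 libraries, where the lowest other class of that size had 26.3% (TAM 2), 25.4% (NK cells) and 24.2% (TAM 3). In CT26 it was 21.5% against 25.5% to 28.4% in the 13 other classes. In the untreated, Ptgs+/+ and Ptgs-/- cultures it was 26.5%, 24.6% and 24.4%, against at least 29.1%, 28.0% and 28.5% elsewhere. Complex I CPM was 0.540 to 0.768 times that of cDC1, whereas complex III CPM, which includes the hinge protein Uqcrh, was 0.803 to 1.04 times that of cDC1. The gap of 0.26 percentage points in the Ptgs+/+ library lies between classes of the same library. It rests on 54 CCR7+ DCs, was not tested against counting error and has no replicate, so the order there is uncertain.

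**Figure D2:**
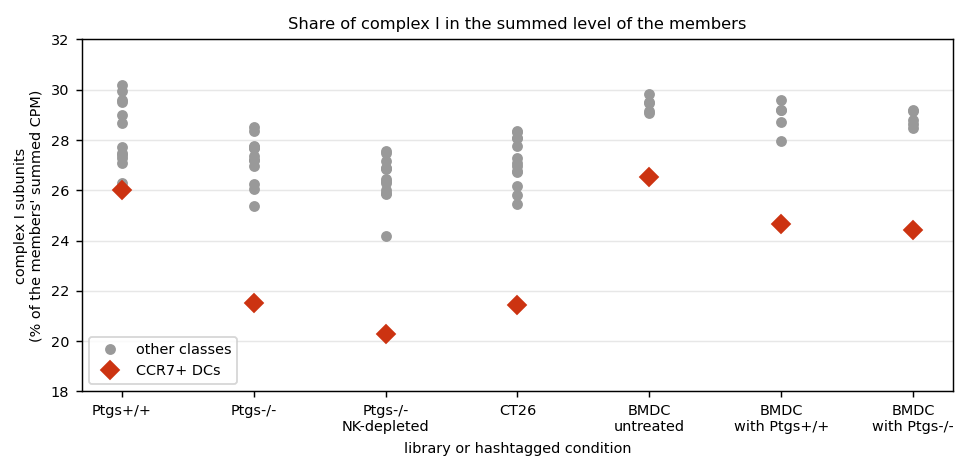
Complex I subunits as a percentage of the members' summed CPM (axis from 18 to 32%), with CCR7+ DCs as diamonds and every other class with at least 30 cells as a circle. The diamond is the lowest point in each column, from 20.3% in the NK-depleted library to 26.5% in untreated cultures, and lies close to the next class in the Ptgs+/+ library.

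Which subunits made this difference was looked at in 14 settings, CCR7+ DCs beside cDC1 and beside cDC2 in each library or condition, relative to the median of all genes. Of 78 members tested in every setting, 22 lay below 0 in all 14 (28.2%) against 14.9% of 4307 genes, and 7 lay above 0 in all 14 (8.97%) against 20% of those genes. Of the 22, 11 were among the 29 accessory complex I subunits tested (37.9%), such as Ndufa8 and Ndufa9. Another 2, Ndufs3 and Ndufs7 of the arm in the matrix, were among its 7 core subunits (28.6%, near the share of all members). Complexes II, III, IV and V had 25%, 12.5%, 27.3% and 26.7% of their tested subunits below 0 in all 14. The 7 were Cox4i1, Cox7a2l, Cox7c, Ndufb4, Uqcrh and the complex II assembly factors Sdhaf1 and Sdhaf2. The settings are not independent, since cDC1 and cDC2 are set beside the same CCR7+ DCs. Members were also counted by size alone, past 0.32 on the log2 scale, the lower of the thresholds used for single genes. Beside cDC1, 44 of 82, 41 of 82 and 40 of 82 members were lower in the Ptgs+/+, Ptgs-/- and NK-depleted libraries (38.2%, 38.6% and 38.3% of all genes), 53 of 83 in CT26 (37.9%), and 39 of 88, 35 of 85 and 34 of 85 in the untreated, Ptgs+/+ and Ptgs-/- cultures (28.8%, 32.6% and 31.7%). In the same order 9, 10, 11, 9, 7, 7 and 8 members were higher, against 40%, 38.5%, 38.2%, 36.9%, 29.8%, 31.6% and 31% of all genes.

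Ndufa8, an accessory subunit facing the intermembrane space, had 54.5, 34.5 and 18 CPM in CCR7+ DCs of the Ptgs+/+, Ptgs-/- and NK-depleted libraries, and 102, 52.6 and 92.3 CPM in cDC1. Ndufs7 had 79.6, 45.9 and 20.3 CPM in CCR7+ DCs and 125.1, 70.8 and 78.4 CPM in cDC1. Uqcrh went the other way, with 702, 919 and 742 CPM in CCR7+ DCs and 494, 634 and 433 CPM in cDC1. In untreated cultures Uqcrh had 1043 CPM in CCR7+ DCs and 665 CPM in cDC1. The CCR7+ DC value was thus the higher for Uqcrh and the lower for both complex I subunits in each of these libraries.

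Within complex II, succinate dehydrogenase, the subunits and their assembly factors pointed in different directions. Sdhaf1, which helps insert the iron-sulphur clusters of the Sdhb subunit, had 126, 123 and 118 CPM in CCR7+ DCs of the Ptgs+/+, Ptgs-/- and NK-depleted tumours, where 50%, 51.7% and 51.1% of the cells held a UMI. cDC1 had 16.3, 4.5 and 13.5 CPM there, from 4, 1 and 5 UMIs, and cDC2 had 28.2, 17.0 and 21.2 CPM. In CT26 the CCR7+ DCs had 106 CPM, cDC1 17.3 and cDC2 24.4 CPM. In the untreated, Ptgs+/+ and Ptgs-/- cultures the CCR7+ DCs had 46.8, 63.3 and 67.9 CPM, against 12.8 to 21.6 CPM in cDC1 and cDC2 and 25.6, 52.6 and 42.9 CPM in pDCs. Within each condition CCR7+ DCs were the highest class, but pDCs with Ptgs+/+ cells lay above untreated CCR7+ DCs. The Sdhaf1 difference was above 0 in 14 of 14 settings, with a median of 2.28 and a range of 1.20 to 4.04 on the log2 scale; it was picked out after its values were seen.

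Sdhaf2, the flavinylation factor of Sdha, was also above 0 in 14 of 14 settings, with a median of 1.09. Sdhb itself had 23.8, 25.6 and 31.4 CPM in CCR7+ DCs of the 3 tumours and 115, 94.8 and 58.0 CPM in cDC1, and lay below 0 in 14 of 14 settings. Sdha, the flavoprotein subunit, had 93.6, 111 and 93.0 CPM in CCR7+ DCs and 105, 101 and 123 CPM in cDC1. Sdhc and Sdhd, the membrane anchors, had 20.3 to 47.3 CPM and 63.1 to 69.9 CPM in these CCR7+ DCs, against 39.6 to 70.5 CPM and 76.8 to 130 CPM in cDC1.

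TAM 3 was the other class with a low sum and many cells (230, 498 and 301). Its summed level was 0.727, 0.780 and 0.769 times that of TAM 1 in the Ptgs+/+, Ptgs-/- and NK-depleted libraries, and its 13 mitochondrially encoded subunits were at 0.676, 0.465 and 0.574 times TAM 1. Over all genes tested the TAM 3 value was also lower, by a log2 median of -0.23 in the Ptgs+/+ library and -0.21 in the NK-depleted one. These medians were taken off before members were counted, and none was taken off in the Ptgs-/- library. Among members, 47 of 80, 49 of 81 and 36 of 80 were lower past 0.32 on the log2 scale, against 27.8%, 28.2% and 28.1% of all genes, and 5, 0 and 3 were higher, against 28.5%, 18% and 28.2%. Beside this, its 13 glycolysis genes summed to 13272, 13347 and 15198 CPM (6342, 8498 and 8611 CPM in TAM 1), and its 12 hypoxia-induced genes to 5130, 5615 and 7478 CPM (1046, 2020 and 2340 CPM in TAM 1). Median depth was 3174 to 3814 UMIs per cell in TAM 3 and 5178 to 6869 in TAM 1, and the part of depth in the difference was not tested.

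In Ptgs-/- tumours of NK-depleted mice the summed level was lower than in Ptgs-/- tumours of undepleted mice in nearly every class. The sum was at least 1.1-fold lower, with a counting interval that left out 1, in 13 of 14 classes (12 of 13 without the class called NK cells), and TAM 4 was the exception. cDC2 had 17814 CPM in the Ptgs-/- library and 14664 CPM in the NK-depleted one, a UMI ratio of 0.824 (0.814 to 0.833), with 17147 CPM in the Ptgs+/+ library. TAM 1 had 16132 and 14053 CPM, with 16080 CPM in the Ptgs+/+ library. Across the 14 classes the log2 difference ran from -0.30 to -0.09 with a median of -0.25. The median of all genes tested was between -0.02 and 0.19 in these classes. With 1 library per group, the depletion cannot be told apart from any other difference between the 2 libraries.

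Other gene sets moved between the same libraries. The 13 mitochondrially encoded subunits were higher in 13 of 14 classes (-0.01 to 0.79, median 0.23), opposite to their nuclear partners, and ribosomal protein genes were lower in 13 of 14 (-0.28 to 0.02, median -0.20). Without the class called NK cells both counts were 12 of 13, with the same medians. The median mitochondrial share of a cell's UMIs was 3.15% in the Ptgs-/- library and 3.78% in the NK-depleted one, with median depths of 4562 and 5463 UMIs. With the mitochondrially encoded and ribosomal genes taken out of the total, the members were still lower in 13 of 14 classes (12 of 13 without the class called NK cells).

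**Figure D3:**
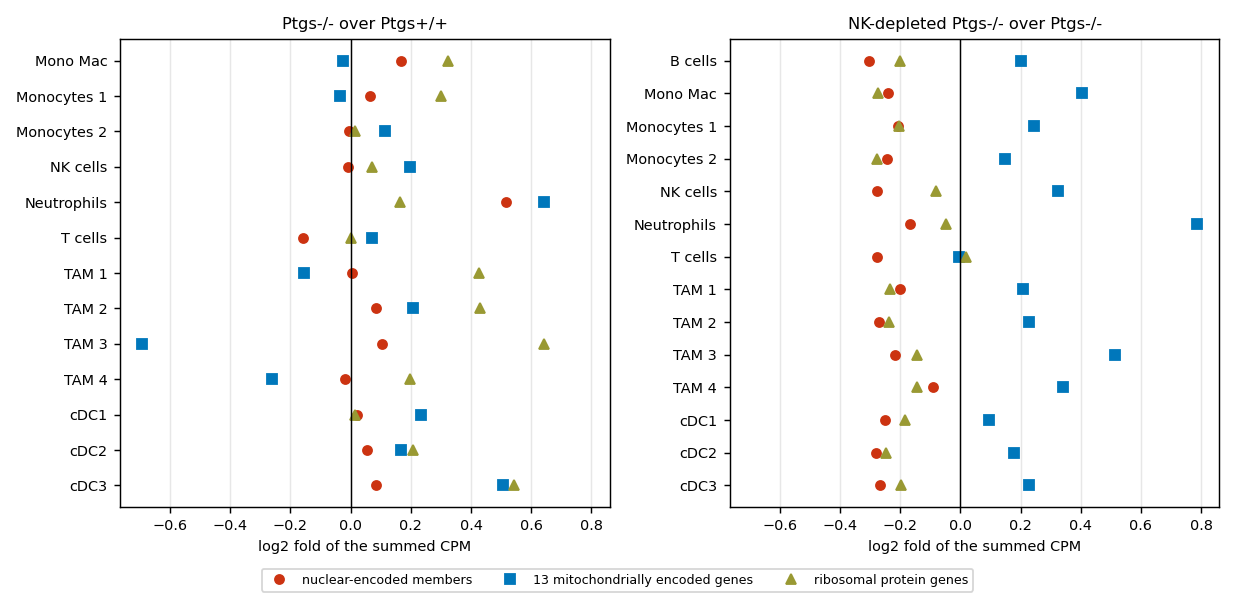
Log2 fold of the summed CPM per class for the nuclear-encoded members (circles), the 13 mitochondrially encoded genes (squares) and ribosomal protein genes (triangles), in both 5555 comparisons, which share the Ptgs-/- library. In the right panel every circle lies below 0, between -0.30 and -0.09, and all squares but that of T cells lie above 0; in the left panel circles lie near 0 except in neutrophils (0.52), Mono Mac (0.17) and T cells (-0.16).

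By complex, the median member fold was furthest below 0 in accessory subunits of complex I and in complexes III and IV. The median over the tested accessory complex I subunits was below 0 in 14 of 14 classes, with a median over classes of -0.32. Complex IV was below 0 in 13 of 14 classes (-0.31) and complex III in 12 of 14 (-0.27). Complex V was below 0 in 14 of 14 but at -0.08, core complex I at -0.07 and complex II at -0.08. Summed CPM can order the complexes otherwise. In CCR7+ DCs complex V had 4202 CPM in the Ptgs-/- library and 3588 CPM in the NK-depleted one. Complex III had 1751 and 1639 CPM there. Outside the members, the mitochondrial ribosome list was below 0 in 12 of 14 classes (-0.24), the chain's partners and assembly factors with other names in 14 of 14 (-0.23), and the tricarboxylic acid cycle list above 0 in 11 of 14 (0.05). Without the class called NK cells the accessory complex I subunits were below 0 in 13 of 13 classes (-0.32), complex IV in 12 of 13 (-0.31), complex III in 11 of 13 (-0.26) and complex V in 13 of 13 (-0.07). Core complex I was at -0.09 and complex II at -0.08. The mitochondrial ribosome list was then below 0 in 11 of 13 classes (-0.22), the partners in 13 of 13 (-0.27), and the tricarboxylic acid cycle list above 0 in 10 of 13 (0.05).

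In cDC2, 35 of 84 members were lower after depletion past 0.32 on the log2 scale and 2 higher, against 12.4% and 14.8% of all genes, and past 1.5-fold 6 were lower and 0 higher, against 2.82% and 3.67%. In TAM 1, 29 of 81 were lower and 1 higher (7.39% and 12.5% of all genes), and past 1.5-fold 6 and 0 (1.09% and 1.4%). Past the lower threshold, in Monocytes 1 23 of 80 were lower and 0 higher (8.94% and 11.2%), in Mono Mac, 35 of 84 were lower and 2 higher (11.6% and 17.6%), and in CCR7+ DCs, 33 of 80 were lower and 9 higher (27.3% and 33.7%). Of 37 members tested in every class, 9 were below 0 in all 14 (24.3%, against 4.38% of 1188 genes): Atp5e, Atp5h, Atp5j, Atp5l, Cox5b, Cox7b, Cox8a, Ndufa13 and Ndufb9. None was above 0 in all 14 (2.36% of genes were). Without the class called NK cells the same 9 members were below 0 in all 13 classes (24.3%, against 4.79% of 1189 genes), and 1, Atp5g2, was above 0 in all 13 (2.7%, against 3.45%). These counts are by size alone, since no spread between mice is known.

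Ndufb9, an accessory subunit of the complex I membrane arm, had 272, 181 and 115 CPM in TAM 1 of the Ptgs+/+, Ptgs-/- and NK-depleted libraries, and 261, 169 and 124.6 CPM in cDC2. Cox5b, a nuclear subunit of complex IV, had 260, 224 and 170 CPM in TAM 1 and 252, 243 and 165 CPM in cDC2. Both were lowest in the NK-depleted library. Some catalytic and membrane-ring genes of complex V did the reverse: Atp5b, the catalytic beta subunit, had 314, 246 and 302 CPM in TAM 1 and was above 0 in 11 of 14 classes after depletion (10 of 13 without the class called NK cells). Atp5g3, a copy of the ring subunit c, had 203, 222 and 295 CPM in TAM 1 and was above 0 in 13 of 14 classes (12 of 13 without that class), as was Atp5g2, another copy (13 of 13). The remaining copy, Atp5g1, was lower after depletion in TAM 1, with 171, 139 and 102 CPM, so the copies did not move together.

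Beside the complexes, transcript length separated the members. Members with an mRNA under 800 nucleotides had a median over classes of -0.30 after depletion those of 800 to 2000 nucleotides of -0.12, and longer ones of -0.18 in the 6 classes with at least 5 of them. Ribosomal protein genes under 800 nucleotides were at -0.24, and all other genes of that length at -0.05. Without the class called NK cells the medians were -0.31 for members under 800 nucleotides, -0.11 for those of 800 to 2000, -0.24 for short ribosomal protein genes and -0.04 for other short genes. For Ptgs-/- over Ptgs+/+ tumours, which share the Ptgs-/- library, the same split gave 0.10 for members under 800 nucleotides (below 0 in 1 of 13 classes), -0.12 for those of 800 to 2000 (below 0 in 10 of 13) and 0.35 for short ribosomal protein genes. This split was added after the data were seen, and the part of mRNA length in either comparison was not tested.

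Ptgs-/- tumours showed nearly the same summed level as Ptgs+/+ tumours in 10 of 13 classes. Neutrophils were higher, at 7550 CPM in Ptgs+/+ and 10797 CPM in Ptgs-/- tumours (UMI ratio 1.38, 1.28 to 1.48), and so was Mono Mac, at 16094 and 18052 CPM (1.13, 1.105 to 1.16). T cells were lower, at 14760 and 13211 CPM (0.914, 0.865 to 0.966). T cells no longer passed 1.1-fold with pooled UMIs, nor did Mono Mac relative to the median of all genes or as the mean of member folds. In cDC2, cDC1 and CCR7+ DCs the UMI ratios were 1.05 (1.04 to 1.06), 1.04 (0.994 to 1.08) and 1.08 (1.03 to 1.12). Neutrophils lay at 0.52 on the log2 scale but at 0.20 in cells with at least 500 genes and at 0.32 relative to the median of all genes, which was 0.19 there. Only 35 members were tested in neutrophils, of which 20 were higher and 4 lower past 0.32 on the log2 scale (32.6% and 31.3% of all genes). At least 10% of neutrophils held a UMI for 20 members in the Ptgs+/+ library and for 34 in the Ptgs-/- one. The filter thus favoured higher members, and nothing is read from these neutrophil counts. In Mono Mac, 26 of 85 were higher and 13 lower (27.3% and 23.1%), and in T cells, 11 of 70 were higher and 31 lower (31% and 27.4%). Neutrophils are small and RNA-poor, and the class, whose marker genes summed to 30363 CPM in Ptgs+/+ and 21661 CPM in Ptgs-/- tumours, had its mitochondrially encoded subunits higher too, by 0.64; their part in the result was not tested. Ribosomal protein genes were higher in 13 of 13 classes (0.00 to 0.64).

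Below the steady sum, single members differed in both directions. Of 35 members tested in all 13 classes, 7 were above 0 in every class (20%, against 5.42% of 1126 genes): Atp5e, Atp5k, Atp5l, Cox6c, Cox7c, Ndufa2 and Ndufa3. Another 2, Atp5h and Cox4i1, were below 0 in every class (5.71%, against 5.24%). Atp5e, the epsilon subunit of the complex V stalk, had 479, 709 and 505 CPM in TAM 1 of the Ptgs+/+, Ptgs-/- and NK-depleted libraries, 496, 818 and 559 CPM in cDC2 and 490, 757 and 534 CPM in Monocytes 1. It was highest in the Ptgs-/- library in these 3 classes. Atp5h, the peripheral-stalk subunit d, had 572, 458 and 320 CPM in TAM 1 and 690, 554 and 398 CPM in cDC2, in the order Ptgs+/+, Ptgs-/-, NK-depleted in both classes. Because the Ptgs-/- library enters both 5555 comparisons, these values are set side by side and nothing is read from their overlap.

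Cox4i1, the ubiquitous form of the regulatory subunit 4 of complex IV, had 1090, 838 and 774 CPM in TAM 1, 1157, 915 and 741 CPM in cDC2 and 1260, 907 and 832 CPM in CCR7+ DCs. It was lower past 0.32 on the log2 scale in 12 of 13 classes in Ptgs-/- tumours, with a median of -0.45. Uqcr11, a small subunit of complex III, had 170, 302 and 247 CPM in cDC2, and was higher past that threshold in 11 of 13 classes, with a median of 0.81. Core complex I subunits had a median below 0 in 10 of 12 classes (-0.25) and complex III subunits above 0 in 11 of 13 (0.18). Ndufv1, the NADH-binding core subunit, had 51.6 CPM in Ptgs+/+ and 27.4 CPM in Ptgs-/- tumours in TAM 1, and 56.0 and 35.0 CPM in cDC2.

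In TAM 1, 14 of 82 members were higher past 0.32 on the log2 scale and 26 lower in Ptgs-/- tumours (20% and 19.1% of all genes), and in cDC2, 17 of 83 were higher and 20 lower (23% and 18.7%). In CCR7+ DCs, 18 of 80 were higher and 16 lower (33.2% and 32.8%). The shares of higher members stood below those of all genes in these 3 classes, and the shares of lower members above them in TAM 1 and cDC2 only. In the CCR7+ DCs of 54 and 58 cells, Atp5d, the delta subunit, had 313 and 118 CPM in the Ptgs+/+ and Ptgs-/- tumours, and Atp5e 435 and 817 CPM.

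**Figure D4:**
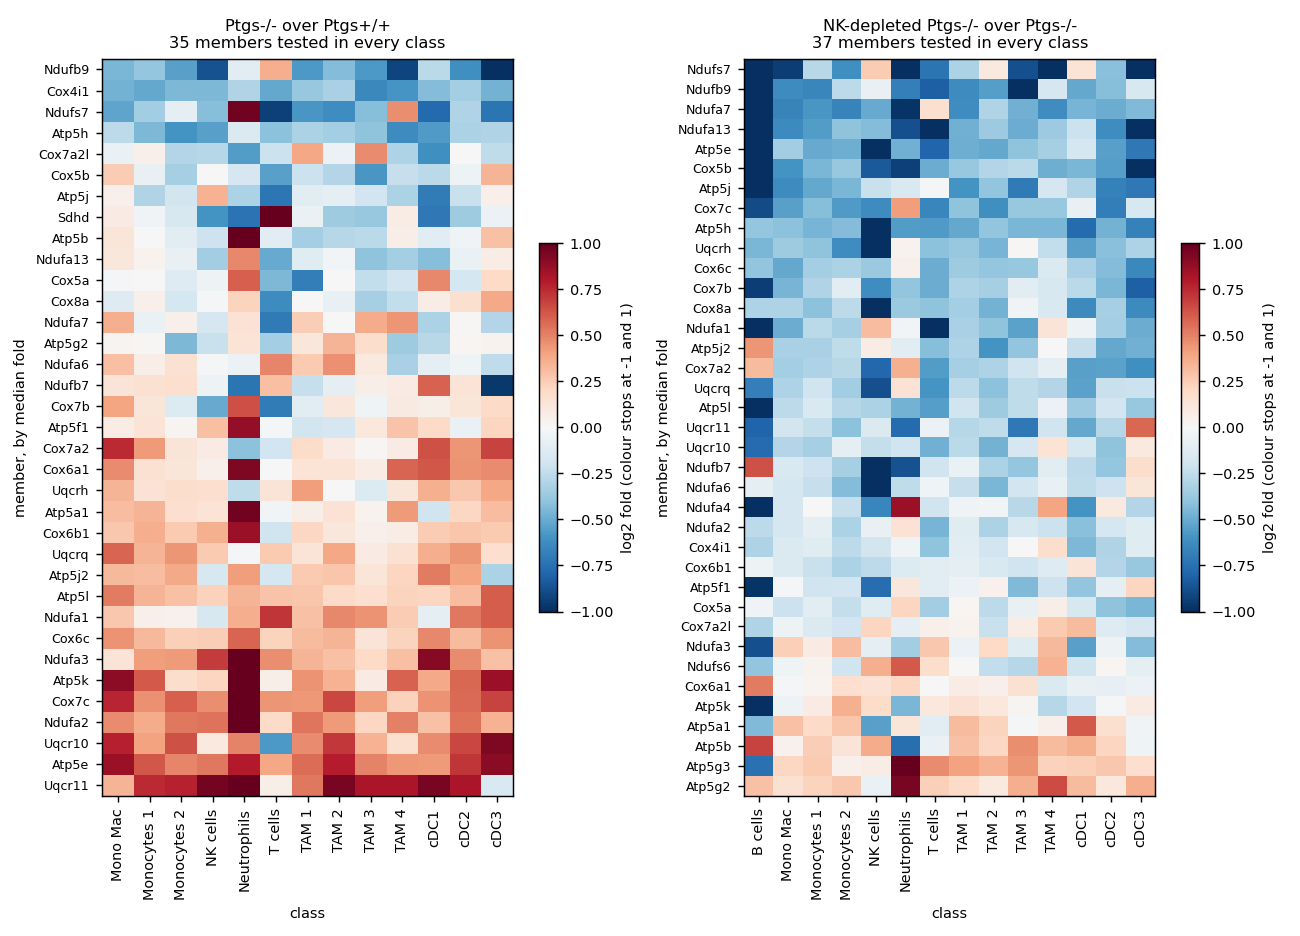
Log2 folds (colour, stopping at -1 and 1) of the members tested in every class, rows ordered by their median, columns by class; 35 members in Ptgs-/- over Ptgs+/+ and 37 in NK-depleted over Ptgs-/-. Rows of 1 colour across a panel, such as Cox4i1 and Atp5h in blue and Atp5e and Cox7c in red on the left, are members with 1 direction in every class.

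The muscle-type isoform Cox7a1 had 5.79, 31.3 and 18.4 CPM in TAM 1 of the Ptgs+/+, Ptgs-/- and NK-depleted libraries. In Mono Mac it had 2.76, 20.2 and 8.65 CPM. In TAM 3 it had 4.997, 31.3 and 16.0 CPM. It passed the detection filter in these 3 classes through the Ptgs-/- library, where it was the highest (in TAM 1 the NK-depleted library passed too), so the filter favoured this direction and nothing is read from it. In TAM 4, which did not pass, it had 27.6, 13.6 and 15.4 CPM. The lung-type Cox4i2 had 13, 21.3 and 19.8 CPM in TAM 3, and Ndufa4l2, the hypoxia-inducible relative of Ndufa4, 13, 17.6 and 9.77 CPM there. These 3 isoforms were below 32 CPM in every class, far under their ubiquitous partners.

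In the BMDC cultures, contact with 5555 cells left the summed level within 1.1-fold of untreated cultures in all 6 classes. CCR7+ DCs had 19695 CPM untreated, 18671 with Ptgs+/+ and 19031 with Ptgs-/- cells, and cDC2 had 22845, 23452 and 23300 CPM. The CCR7+ DC class held 214, 1060 and 477 cells in these conditions, and the part of its make-up in any difference was not tested. The log2 differences were -0.08 to 0.06 with Ptgs+/+ cells, -0.06 to 0.08 with Ptgs-/- cells and -0.03 to 0.03 between the co-cultures. The median of all genes was lower with either tumour cell (-0.28 to -0.06), so that relative to it the sum was at least 1.1-fold higher in 5 and 4 of 6 classes. The mitochondrially encoded subunits were lower in 6 of 6 classes with either tumour cell (-0.51 to -0.25). Glycolysis genes had medians of 0.26 to 0.75 with Ptgs+/+ and 0.23 to 0.49 with Ptgs-/- cells, and hypoxia-induced genes of 0.47 to 1.254 and 0.40 to 0.86.

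Relative to the median of all genes, members leaned upward with Ptgs+/+ cells. Of 82 members tested in all 6 classes, 27 were above 0 in every class (32.9%, against 19% of 4259 genes) and 4 below (4.88%, against 13.2%). With Ptgs-/- cells 19 of 82 were above (23.2%, against 14.5% of 4065 genes) and 10 below (12.2%, against 14%). In that comparison the median was not taken off in pDCs (-0.06) and proliferating cDC2 (-0.07). Between the co-cultures 2 of 81 were above (2.47%, against 10.2% of 3614 genes) and 4 below (4.94%, against 7.39%), with no median taken off in any class. The counts of the comparisons are thus not centred alike, and each is read only beside its own share of all genes. Past 0.32 on the log2 scale, 18 of 85 members were higher and 5 lower in CCR7+ DCs with Ptgs+/+ cells (23.6% and 24% of all genes), 16 of 87 higher and 4 lower in cDC1 (20% and 18.7%), and 27 of 93 higher and 2 lower in proliferating cDC2 (20.5% and 22.4%). In CCR7+ DCs with Ptgs-/- cells, 15 of 85 were higher and 11 lower (20% and 22.2%), and between the co-cultures 1 of 82 and 2 (10.4% and 7.89%). Neutrophil markers in the class called pDC summed to 1756 CPM untreated and 11114 CPM with Ptgs+/+ cells, and in proliferating cDC2 to 851 and 5037 CPM; their part in the differences was not tested.

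Sdhd, a membrane anchor of complex II, had 63.7, 87.2 and 89.9 CPM in CCR7+ DCs of untreated, Ptgs+/+ and Ptgs-/- cultures, and 77, 106 and 94.1 CPM in cDC1. It was above 0 in all 6 classes in both comparisons with untreated cultures. Cox8a, a small complex IV subunit, had 708, 969 and 910 CPM in cDC1 and 770, 796 and 854 CPM in CCR7+ DCs. In the opposite direction, Ndufa5, an accessory subunit of the complex I arm in the matrix, had 84.3, 46.0 and 51.7 CPM in cDC1 and 41.1, 25.5 and 28.3 CPM in CCR7+ DCs. Uqcr11 had 156, 121 and 120 CPM in CCR7+ DCs and was below 0 in 6 of 6 classes with either tumour cell. For all 4 genes the co-cultures lay on the same side of the untreated value in each class named.

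Sdhaf1 and Sdhaf2 were among the 3 highest members of CCR7+ DCs in both comparisons with untreated cultures. Sdhaf2 had 63.8 CPM untreated, 108 with Ptgs+/+ and 94.5 with Ptgs-/- cells, and Sdhaf1 46.8, 63.3 and 67.9 CPM. In proliferating cDC2, Sdhaf1 had 20.1, 40.7 and 25.1 CPM. Ndufaf2, a complex I assembly factor, was the lowest named member of CCR7+ DCs with Ptgs-/- cells, at 15.6 CPM untreated and 5.37 CPM in co-culture. At such low levels a member can pass the detection filter through the untreated group alone. That favours this direction, so nothing is read from Ndufaf2.

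Ndufa4 is a subunit of complex IV despite its complex I name. Its paralogue AA467197 is the mouse gene of human C15orf48, known as an alternative subunit in inflamed cells. Their levels moved in opposite directions in CCR7+ DCs and cDC1 of the cultures. The paralogue carries no member prefix and is given beside Ndufa4. In CCR7+ DCs of untreated, Ptgs+/+ and Ptgs-/- cultures Ndufa4 had 174, 117 and 113 CPM, with UMI ratios to untreated of 0.589 (0.526 to 0.660) and 0.535 (0.467 to 0.614). AA467197 had 162, 347 and 269 CPM there, with ratios of 1.84 (1.66 to 2.05) and 1.44 (1.28 to 1.62). UMI ratios pool all cells of a class, so deep cells weigh more than in the mean CPM. For both genes here the ratios of the mean CPM lie above these intervals. In cDC1 Ndufa4 had 359, 254 and 269 CPM and AA467197 14.5, 85.8 and 41.7 CPM. AA467197 was lower with Ptgs-/- than with Ptgs+/+ cells, with a ratio of 0.506 (0.447 to 0.572) in cDC1, 0.757 (0.688 to 0.832) in cDC2 and 0.780 (0.725 to 0.839) in CCR7+ DCs.

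In most tumour classes AA467197 was instead higher in Ptgs-/- than in Ptgs+/+ tumours. It was lower in cDC1 (20.1, 0 and 10.9 CPM) and in NK cells (28, 11.4 and 34.7 CPM). These values rest on 4, 0 and 4 UMIs and on 12, 17 and 5 UMIs, so the order there is uncertain. The last NK cell value belongs to the 45 cells that went against their label. cDC2 had 62.6, 329 and 268 CPM in the Ptgs+/+, Ptgs-/- and NK-depleted libraries, a UMI ratio of 5.46 (4.65 to 6.45) between the first and second. TAM 1 had 21.2, 99.7 and 144 CPM, and CCR7+ DCs 108, 253 and 88.9 CPM. Ndufa4 had 277, 210 and 225 CPM in cDC2, 250, 170 and 166 CPM in TAM 1 and 163, 179 and 145 CPM in CCR7+ DCs. TAM 3 had 86.2, 75.7 and 61.5 CPM of Ndufa4 and 42.4, 162 and 209 CPM of AA467197. In CT26 the CCR7+ DCs had the lowest Ndufa4 level of the 14 classes, 159 CPM, beside 150 CPM of AA467197, against 428 and 1.84 CPM in cDC1. Tumour and culture matrices were deposited apart, and no test of the difference between them was run.

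Cox6a2, the heart- and muscle-type isoform of complex IV subunit 6a, was a gene of plasmacytoid DCs. In CT26 pDCs it had 1467 CPM, with a UMI in 179 of 204 cells (87.7%, exact interval 82.4 to 91.9%), and it alone made up 6.78% of the members' sum there. CT26 cDC1 held 0 UMIs of it in 351 cells, and TAM 2, the next class, 2.61% of cells. In pDCs of untreated, Ptgs+/+ and Ptgs-/- cultures it had 852, 873 and 885 CPM and a UMI in 65.5%, 57.5% and 62.5% of cells. The class called proliferating cDC2 had 490.02, 505 and 723 CPM and a UMI in 32.1%, 53.3% and 56.5% of cells, while the remaining culture classes had at most 7.86%. Thinned to 1000 UMIs per cell the shares were 66.7% in CT26 pDCs, 37.9 to 45.8% in cultured pDCs and 19.7 to 28.8% in proliferating cDC2. No class of the 5555 tumours exceeded 2.22% of cells; no pDC class is annotated there.

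The genes whose level over classes was most like Cox6a2 in both CT26 (14 classes) and the cultures (18 classes by condition) were Ly6d, Slco4a1, Spns3, Mn1 and Fads3, with Pearson correlations of 0.919 to 0.981 in CT26 and 0.931 to 0.978 in the cultures. Points share libraries, and 1 or 2 classes with high levels set these values. Cox6a1, the ubiquitous isoform, had 206, 233 and 213 CPM in cultured pDCs of the 3 conditions and 196, 187 and 162 CPM in cultured CCR7+ DCs.

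**Figure D5:**
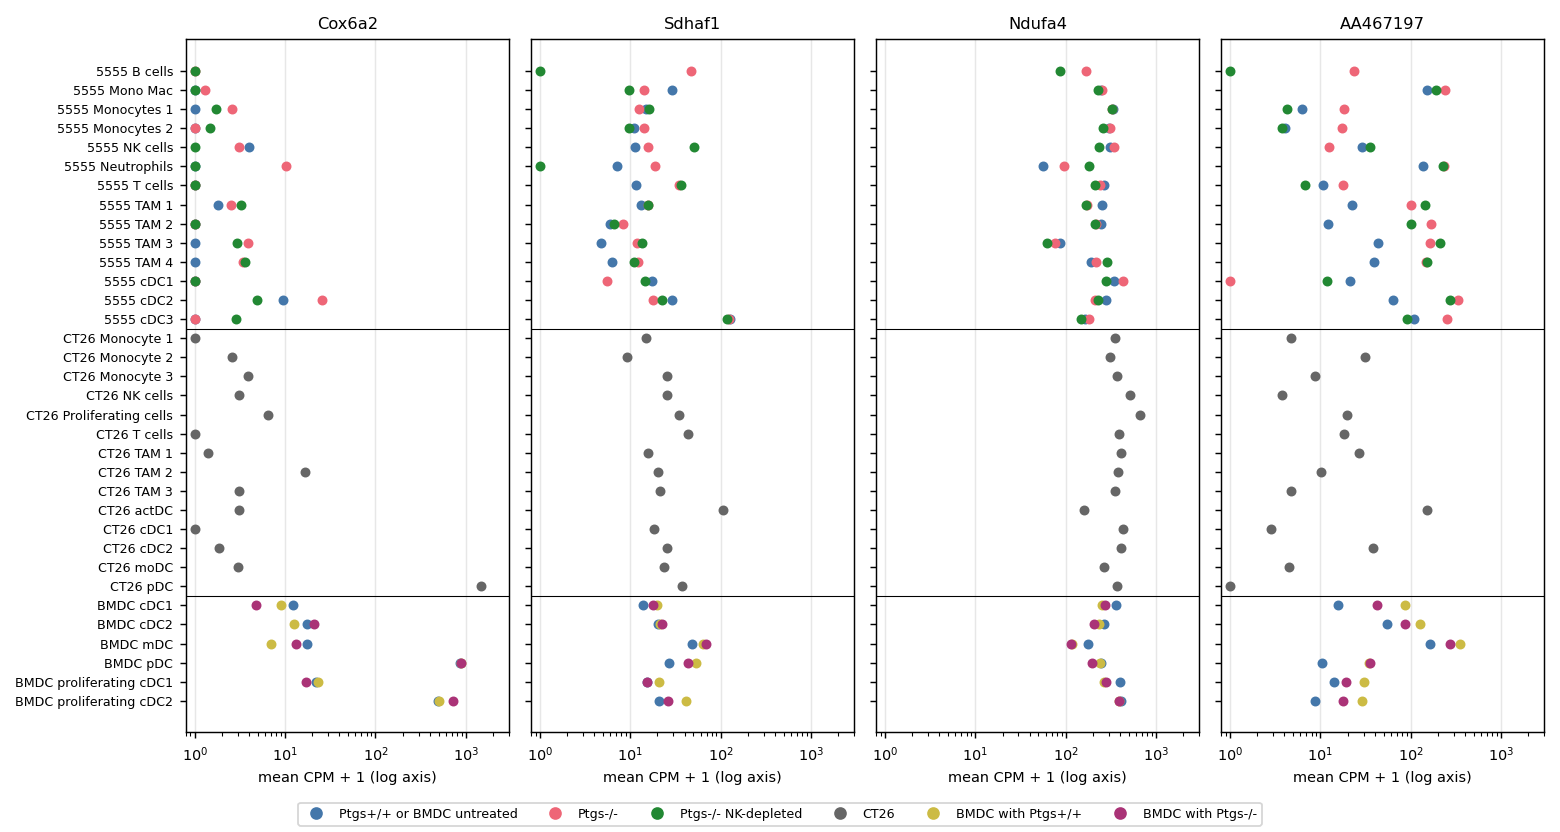
Mean CPM + 1 (log axis) of Cox6a2, Sdhaf1, Ndufa4 and AA467197 in every class with at least 30 cells; colours give the library or condition. Cox6a2 reaches 1467 CPM in CT26 pDCs, Sdhaf1 is highest in the CCR7+ DC class of each library or condition, and AA467197 spans levels from 0 to 347 CPM.

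Of the partners outside the prefixes, Cycs and Atpif1 were also higher in cDC1 than in CCR7+ DCs. Cycs, cytochrome c, had 454, 389 and 294 CPM in cDC1 of the Ptgs+/+, Ptgs-/- and NK-depleted libraries and 109, 66.6 and 60.9 CPM in CCR7+ DCs. Atpif1, the inhibitor of complex V, had 457, 772 and 452 CPM in cDC1 and 250, 315 and 232 CPM in CCR7+ DCs. In CT26 Cycs had 533 CPM in cDC1 and 72.1 CPM in CCR7+ DCs. Nnt, the inner-membrane transhydrogenase, had at most 2.04 CPM in TAM 1 of the 5555 libraries and 0.323 CPM in TAM 1 of CT26. In cDC1 of the Ptgs+/+, Ptgs-/- and NK-depleted libraries it had 0, 0 and 1.20 CPM.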

How the data were processed

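Single-cell libraries of sorted CD45+ cells had been aligned to mm10 with Cell Ranger 3.0.2, and Partek is named, per the submitters' processing notes. The deposited matrices hold log2(CPM + 1) per cell, as the values themselves show, and cell classes come from the authors' deposited annotation. The deposited log2 values were returned to CPM, and UMIs were recovered by dividing by each cell's commonest value above 0, which gave whole numbers (within 0.1) for over 99.9% of values. Genes with parts of a UMI (Atp5o in the tumour matrices, Nnt) got no UMI counts or intervals. Of the 5555 cells, 36 without an annotation and 18 with a repeated barcode were left out; 23 to 44 barcodes were shared between matrices. Doublets were not called, and as an alternative the top 5% of cells by gene number were dropped.

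Levels are class means, a fold is the difference between groups in log2(mean CPM + 5), and genes were compared where at least 10% of cells of either group held a UMI, relative to the median of all genes where that lay over 0.1 from 0. A class needed 30 cells. The summed level was called at 1.1-fold with a 95% exact interval of the UMI ratio that leaves out 1. With 1 library per group there is no test between groups. For each class described, the rule for naming took the 3 highest and 3 lowest members with at least 50 UMIs, a fixed set of isoforms, complex II subunits and partners, and the 5 genes most like Cox6a2; other members were named after their values were seen. The members and gene lists were chosen with earlier results of these data known. Marker lists, the glycolysis and hypoxia lists and the motif strings are textbook choices. The scripts were tested on simulated data and used Python 3.11.15, NumPy 2.4.6, SciPy 1.17.1 and matplotlib 3.10.9.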

Additional observations from a re-analysis of the deposited data

Results flagged for a closer look

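Between Ptgs-/- and Ptgs+/+ tumours, classes differed in the direction of the summed level. It was higher in Ptgs-/- tumours in neutrophils (0.52 on the log2 scale) and Mono Mac (0.17) and lower in T cells (-0.16). The difference between the classes was not tested, since each group is 1 library.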

How the results depend on the processing

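No paired analysis was possible because each group is 1 library. The 13 classes lower in the NK-depleted library numbered 12 to 14 under the other ways of summing, scaling or selecting cells, and 12 of 13 without the class called NK cells. The number of classes below CCR7+ DCs stayed within the tolerance set for such counts in 42 of 42 alternatives. That tolerance allows small changes, so the number need not have been identical. For Ptgs-/- over Ptgs+/+ tumours the 2 higher classes became 5 without mitochondrially encoded and ribosomal genes in the total and 1 relative to the median of all genes, and the 1 lower class became 0 with pooled UMIs. In cultures with Ptgs+/+ cells the 0 higher classes became 5 relative to the median of all genes, and with Ptgs-/- cells 4, or 1 without mitochondrially encoded and ribosomal genes. The 0 lower classes became 1 with either tumour cell when member folds were averaged. Their cause was not tested. Of the summed folds by class, 251 stayed within the counting interval and 109 moved past it, and none that had been called changed sign. No spread between mice is known, intervals cover counting error only, and classes under 60 cells, such as cDC1 and CCR7+ DCs of 5555 tumours, rest on few UMIs per gene.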
